A study of Mus musculus with 6 samples.

Results

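The 10 transcription factor genes described here are the FOS subunits of AP-1 (*Fos*, *Fosb*, *Fosl1* and *Fosl2*), its JUN subunits (*Jun*, *Junb* and *Jund*), the related factor *Atf3*, and the zinc finger genes *Egr1* and *Egr2*. They were chosen by name, and all 10 were found among the 15415 genes listed for peritoneal macrophages (PEMs). RNA was sequenced in 6 libraries of PEMs, 3 titled as knockout, from LysM-Cre; Tim-4 fl/fl animals, and 3 titled as control, from Tim-4 fl/fl animals, each numbered 1 to 3. Both groups carry the floxed Tim-4 alleles, with loxP sites in introns 1 and 3, and only the knockout group carries Cre, which is driven from the lysozyme gene *Lyz2* in myeloid cells. The mice were males of 6 to 8 weeks on C57BL/6J, and PEMs were collected 3 days after an injection of starch solution. LPS is the labelled treatment of each of the 6 libraries, and no untreated library is among them, so the values below compare genotypes within cells labelled as LPS-treated. The study's methods give 1 ug per ml of LPS for 3.5 hours to activate PEMs, without naming these libraries. Earlier times after LPS were not sequenced. The comparison asks how the loss of Tim-4, a receptor for phosphatidylserine on macrophages, changes gene expression in these cells. A second label, for genotype, contradicts the titles by swapping the groups. The groups follow the titles here, and the *Timd4* levels given below were lower in each library titled as knockout than in any titled as control. The study speaks of biological replicates in general terms, but no source used here says of these libraries whether the 3 of a group came from separate mice, so p-values measure the spread between these libraries, which may in part be technical.

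AP-1 is a pair of basic leucine zipper proteins bound to DNA, either a FOS protein with a JUN protein or 2 JUN proteins together, and ATF3 can take the place of a FOS protein. FOS proteins do not pair with each other, so the mix of subunits in a cell decides which pairs can form. *Fos*, *Fosb*, *Jun*, *Egr1* and *Egr2* are immediate early genes, switched on within minutes of a stimulus through MAP kinases and then shut off, whereas FRA-1 (*Fosl1*) and FRA-2 (*Fosl2*) typically follow later and last longer. In macrophages, LPS acts through TLR4 to activate MAP kinases and NF-κB, and ATF3 is known as an LPS-induced factor that restrains inflammatory cytokine genes.

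The start regions of 4 of these genes are shown because the results turn on them: *Fosl2*, which was lower in the knockout libraries, *Atf3* and *Junb*, which lay above the controls in each knockout library, and *Fos*, whose group means were nearly equal. Each stretch runs from 250 bases before to 50 bases after the gene's start, in RefSeq's sequence of build GRCm38.p6, at chr5:32136222-32136521 on the plus strand, chr1:191183284-191183583 on the minus strand, chr8:84978699-84978998 on the minus strand and chr12:85473640-85473939 on the plus strand. Capitals mark matches to the motifs named in the paragraph that follows the sequences.
*Fosl2*: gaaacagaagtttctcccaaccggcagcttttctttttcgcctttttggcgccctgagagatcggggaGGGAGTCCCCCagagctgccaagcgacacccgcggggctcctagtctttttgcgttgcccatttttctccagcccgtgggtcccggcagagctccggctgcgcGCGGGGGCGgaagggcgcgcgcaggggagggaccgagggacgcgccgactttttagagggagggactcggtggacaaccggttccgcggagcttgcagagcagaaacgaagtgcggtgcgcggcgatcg
*Atf3*: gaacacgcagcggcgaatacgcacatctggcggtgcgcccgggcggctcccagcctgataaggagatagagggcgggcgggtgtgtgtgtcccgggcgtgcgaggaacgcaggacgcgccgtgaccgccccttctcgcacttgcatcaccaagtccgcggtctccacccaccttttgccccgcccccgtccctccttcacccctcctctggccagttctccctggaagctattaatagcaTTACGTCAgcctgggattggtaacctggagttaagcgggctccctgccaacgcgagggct
*Junb*: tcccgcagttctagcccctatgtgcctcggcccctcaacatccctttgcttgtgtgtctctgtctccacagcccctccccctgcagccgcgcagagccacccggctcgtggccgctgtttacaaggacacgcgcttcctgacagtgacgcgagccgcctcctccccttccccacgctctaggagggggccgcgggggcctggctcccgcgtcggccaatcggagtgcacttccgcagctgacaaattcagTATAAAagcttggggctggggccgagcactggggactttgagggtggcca
*Fos*: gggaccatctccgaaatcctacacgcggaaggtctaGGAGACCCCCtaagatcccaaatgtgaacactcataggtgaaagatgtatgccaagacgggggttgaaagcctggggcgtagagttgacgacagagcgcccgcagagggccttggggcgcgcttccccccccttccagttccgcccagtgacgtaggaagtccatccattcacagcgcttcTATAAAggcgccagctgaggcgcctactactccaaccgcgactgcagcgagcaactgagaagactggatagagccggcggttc

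Altogether 7 motifs were searched on both strands in these windows: the AP-1 site TGANTCA, the spaced form TGANNTCA, which includes the cAMP response element, the ATF site TTACGTCA, the EGR site GCGNGGGCG, the CArG box bound by SRF, the NF-κB site, and TATAAA. *Fosl2* held 2 overlapping matches to the NF-κB site, from position -182 to -172 before the start, and an EGR site from -79 to -71. *Atf3* held the ATF site from -10 to -3. *Fos* held an NF-κB site from -214 to -205 and TATAAA from -33 to -28, and *Junb* held TATAAA from 1 to 6. Of the 32851 windows of the same length in the table, 8.46% held the NF-κB site, 5.55% the EGR site, 0.499% the ATF site and 13.6% TATAAA. None of the 4 windows held TGANTCA (7.81% of all windows), TGANNTCA (14.1%) or the CArG box (1.63%). Among the other members, *Jun* held TGANNTCA at 2 places and *Jund* at 1, *Fosb* held an EGR and an NF-κB site, and of the 5 windows of *Egr2* 4 held the CArG box, 1 held TGANNTCA and 1 held 2 overlapping NF-κB matches. A match describes these letters alone, and binding was not measured. Sites outside the windows, or with letters other than these patterns, were not seen. Windows of members on 1 chromosome were left out of the search, and no window of *Fosl1* or *Egr1* was searched, so 8 of the 10 genes were.

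Levels are given in FPKM, read numbers divided by gene length and library total, so they can be compared between genes. Between 36170767 and 42217558 reads per library lay on the listed genes. Differences were fitted with limma on log2(FPKM + 1) over the 9030 genes with a mean of at least 1 FPKM in one group, with Benjamini-Hochberg adjustment over all of them and a threshold of 0.05. The pseudocount of 1 understates the differences of genes at low levels. *Timd4*, which encodes Tim-4, measured 0.333, 0.394 and 0.246 FPKM across knockout libraries 1 to 3, against 19.5, 12.0 and 1.19 FPKM across control libraries 1 to 3, so control library 3 was far below the other controls, though still above each knockout library (log2 difference -2.66, where limma gave an adjusted p of 0.0715, and of 0.0436 in a fit blocked by replicate number). *Lyz2* measured 41.4, 4656 and 106 FPKM across knockout libraries 1 to 3, against 7090 to 8482 FPKM in the controls, so knockout library 2 stood apart there. Macrophage markers (*Adgre1*, *Csf1r*, *Cd68*, *Itgam*, *Mertk* and *Cd14*) were present in both groups, at summed levels of 2563 to 2840 FPKM in the knockout libraries and 2188 to 2659 FPKM in the controls, and 0 of the 6 passed the threshold. The sum hides opposite shifts. In 3 of the 6 every knockout library lay on one side of every control library, beside 34.1% of all genes tested. Mean *Cd68* was higher in the knockout libraries (1642 against 1091 FPKM), while *Csf1r* (105 against 168 FPKM) and *Cd14* (338 against 556 FPKM) were lower.

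Markers of some cell types other than macrophages differed between the groups. All 5 listed B cell markers fell, with a summed level of 2.78 to 5.52 FPKM in the knockout libraries against 27.5 to 115 FPKM in the controls. All 5 tested mast cell markers fell as well, from 38.2 to 49.3 FPKM down to 1.89 to 2.27 FPKM in sum. Markers of large resident peritoneal macrophages were at 3.99 to 7.81 FPKM in sum against 35.3 to 146 FPKM, and 3 of 5 tested fell (*Prg4*, *Alox15* and *Icam2*). This list includes *Timd4*, so the sum and 1 of the 5 tested genes concern the deleted gene itself. *Prg4* made up most of the control sums, at 114, 70.5 and 30.1 FPKM in libraries 1 to 3. The groups overlapped for *Selp* and for *Gata6*, which was not tested. Neutrophil markers did not share a direction. Of 4 tested, 1 fell (*S100a8*, beside 7.31% of all genes called), *Csf3r* had a log2 fold change of 0.46 without passing, the median went from -0.44 to 0.16 with voom, and the summed levels touched, at 108 to 228 FPKM against 228 to 475 FPKM. T cell markers stayed low in both groups, at 0.818 to 1.50 FPKM against 0.970 to 3.20 FPKM. Mesothelial and fibroblast markers were at 10.9 to 28.3 FPKM in the knockout libraries against 2.11 to 11.8 FPKM, and 0 of 4 tested passed. After rescaling by the median of ratios 3 of the 5 B cell markers passed, and with voom 1 of 5, while none passed without knockout library 1, knockout library 2 or control library 2. Of the mast cell markers, 4 passed in every alternative run, and *Kit* did not. Among markers that define a cell type, *Cd3d* and *Fcer1a* were at 0 in 2 of the 3 knockout libraries, and none of the listed markers was at 0 in all 3 libraries of a group. Of the called markers, *Icam2*, *Alox15*, 4 of the 5 B cell markers (all but *Cd79a*) and the 5 mast cell markers had a knockout mean under 1 FPKM, so they passed the filter on low values through the controls alone. With no filter *Icam2* was not called (adjusted p = 0.0598 from limma), and with voom neither *Icam2* nor *Cd79b* was (0.0679 and 0.0525). Among the controls, the B cell sum was 115, 78.9 and 27.5 FPKM and the large peritoneal macrophage sum 146, 91.6 and 35.3 FPKM in libraries 1 to 3, both highest in library 1, as were *Fos*, *Fosl2*, *Jun*, *Junb*, *Egr1* and *Egr2*. The mast cell sum was 38.2, 39.0 and 49.3 FPKM and the neutrophil sum 228, 306 and 475 FPKM, both highest in library 3, as were *Fosl1*, *Jund* and *Atf3*. These orders rest on 3 control libraries and were not related to the differences between the groups. In bulk RNA, fewer cells of a type and less RNA per cell cannot be told apart, and the part of these cells in the results below was not tested.

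The 10 genes spanned a wide range of levels. *Junb* and *Atf3* were the most abundant, with means of 157.6 ± 37.3 and 151.7 ± 39.1 FPKM in the controls and of 252 ± 32.8 and 259 ± 24.8 FPKM in the knockout libraries (SD, n = 3 each), and these neighbours differed by less than their spread in both groups. *Fosl2*, *Jund*, *Jun* and *Fosl1* followed in the controls, at 27.3 ± 7.05, 25.1 ± 2.87, 14.9 ± 1.11 and 12.2 ± 2.76 FPKM, and within this set *Fosl2* and *Jund* did not differ beyond their spread, nor did *Jun* and *Fosl1*. *Fos*, *Egr1* and *Egr2* were low, at 3.48 ± 1.10, 3.48 ± 1.51 and 1.44 ± 0.107 FPKM in the controls. *Fosb* was almost absent in all 6 libraries.

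**Figure D1:**
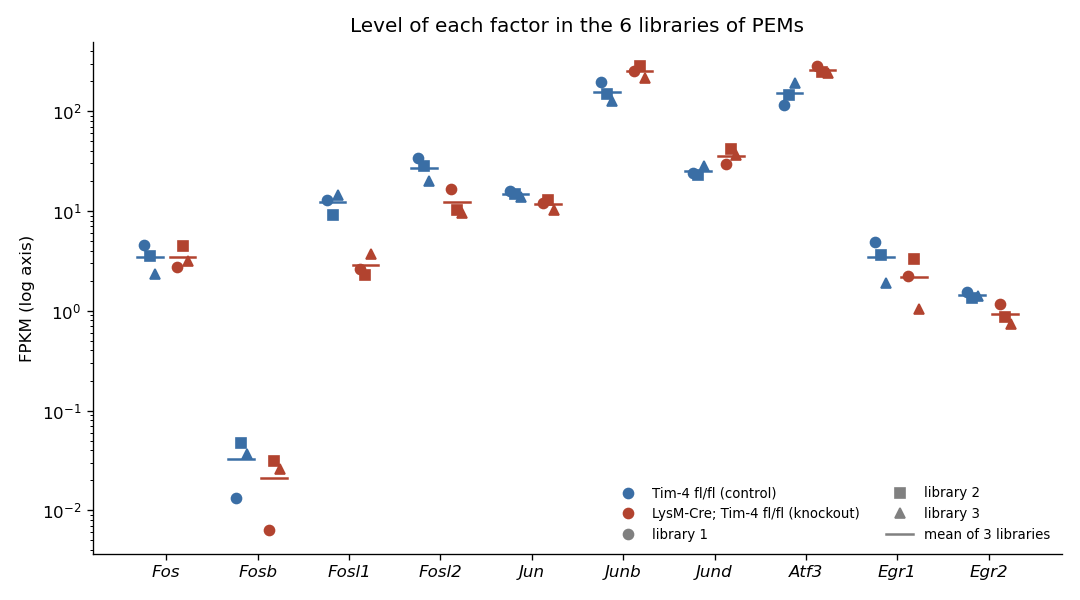
FPKM on a log axis for each of the 10 genes, with control libraries in blue, knockout libraries in red, a marker shape for each library number and a line at the mean of 3 libraries. The knockout points of *Fosl1* and *Fosl2* lie below all control points, those of *Junb*, *Jund* and *Atf3* lie above them, and those of *Fos*, *Fosb* and *Egr1* are mixed with them.

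Of the 10 genes, 9 passed the filter on low values and 2 passed the threshold, *Fosl1* and *Fosl2*, both lower in the knockout libraries. Over all genes tested, 7.31% passed, with 4.74% lower and 2.57% higher. In 7 of the 10 genes every knockout library lay on one side of every control library, 4 below and 3 above, while 34.1% of all genes tested were separated in this way, 23% below and 11.1% above. Before adjustment 6 of the 9 were under a p of 0.05, beside 27.6% of all genes. The median log2 fold change of the 9 tested genes was -0.31, beside -0.11 over all genes. Rescaling the libraries by the median of ratios moved the median of all genes from -0.11 to 0.01. The fitted differences of single genes shift with it by similar but unequal amounts. A two-sided exact permutation test of 3 libraries against 3 cannot give a p below 0.1, and each of the 7 separated genes reached that value.

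How many of the 10 passed depended on the settings. Both *Fosl1* and *Fosl2* passed with a pseudocount of 0.1 (beside 7.66% of all genes) and with the replicate number as a block (9.47%), whereas *Fosl1* and *Atf3* passed after rescaling (7.41%) and with voom (6.52%). *Fosl1* alone passed with no filter on low values (2.89%) and with at least 10 reads in every library (6.44%). With 1 library left out, *Fosl1* alone passed without knockout library 2 (0.698%) or 3 (5.83%), *Fosl1* and *Junb* without control library 1 (8.7%), and *Fosl1*, *Fosl2* and *Atf3* without control library 3 (14.2%). None passed without knockout library 1 (0.332%) or control library 2 (0.0886%), where few genes passed at all.

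Among the FOS subunits, the later members *Fosl1* and *Fosl2* fell and *Fos* did not pass the threshold. *Fosl1*, the gene of FRA-1 (Entrez 14283), measured 2.64, 2.31 and 3.67 FPKM across knockout libraries 1 to 3, against 13.0, 9.19 and 14.6 FPKM across control libraries 1 to 3. The groups did not overlap, and the highest knockout library was well below the lowest control library. The control mean was 4.26 times the knockout mean, and the log2 fold change was -1.77 (standard error 0.21, 95% confidence interval -2.25 to -1.28, adjusted p = 0.00963 from limma). It ranked 43 by p among the 9030 genes. The call was lost without knockout library 1 and without control library 2, where the adjusted p from limma was 0.0569 and 0.0542, at log2 fold changes of -1.73 and -1.95. In those 2 fits only 0.332% and 0.0886% of all genes passed. Between 166 and 256 reads per knockout library and 610 and 899 per control library stood behind these levels. In the reference *Ccdc85b* overlaps *Fosl1*, and since no strand setting is given in the sources used here, their reads could be shared. *Ccdc85b* itself stayed between 0.0703 and 0.396 FPKM (it was looked up after the results were seen).

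*Fosl2*, the gene of FRA-2 (Entrez 14284), was the most abundant FOS subunit in every library. It measured 16.8, 10.3 and 9.64 FPKM across knockout libraries 1 to 3, against 33.8, 28.2 and 19.8 FPKM across control libraries 1 to 3. Knockout library 1 came nearest to the controls and control library 3 nearest to the knockout libraries, and the groups did not overlap. The control mean was 2.23 times the knockout mean, for a fitted log2 difference of -1.10 (standard error 0.26, 95% confidence interval -1.72 to -0.49, adjusted p = 0.0499 from limma). This call was at the edge of the threshold. It was lost after rescaling by the median of ratios (log2 fold change -0.96, adjusted p = 0.108) and in 5 of the 6 fits with 1 library left out (adjusted p from 0.0740 to 0.195 from limma).

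*Fos*, the founding member and a textbook immediate early gene (Entrez 14281), measured 2.72, 4.49 and 3.14 FPKM across knockout libraries 1 to 3, against 4.53, 3.57 and 2.33 FPKM across control libraries 1 to 3. The groups overlapped. The fitted log2 difference was 0.002, and its 95% confidence interval reached from -0.53 to 0.54 (adjusted p = 0.997 from limma), so a change of up to about this size in either direction could not be told from none. Its sign depended on single libraries, with -0.16 without knockout library 2 and -0.20 without control library 3. *Fosb* (Entrez 14282) had 1, 5 and 4 reads in the knockout libraries and 2, 7 and 5 in the controls, at most 0.0476 FPKM, and stayed below the filter on low values. No difference was detectable at this depth. It was fitted without the filter, where its log2 difference was -0.016 (adjusted p = 0.661 from limma).

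The JUN subunits, which can pair with any FOS subunit, differed in the sign of their fitted difference, and none passed the threshold. *Junb* (Entrez 16477) measured 256, 282 and 217 FPKM across knockout libraries 1 to 3, against 198.6, 148.5 and 125.8 FPKM across control libraries 1 to 3. All 3 knockout libraries lay above the controls, with control library 1 the nearest. Its log2 fold change of 0.69 (standard error 0.20, 95% confidence interval 0.23 to 1.15) did not pass the threshold (adjusted p = 0.0761 from limma), and it passed without control library 1 (0.87, adjusted p = 0.0374). *Jund* (Entrez 16478), the JUN protein that resting cells also express, was at 29.3, 41.6 and 36.7 FPKM against 23.9, 23.1 and 28.4 FPKM. Its groups stood close without overlapping, knockout library 1 just above control library 3, and the log2 fold change of 0.49 (95% confidence interval 0.10 to 0.88) had an adjusted p of 0.113 from limma. *Jun* (Entrez 16476), the gene of c-Jun, pointed the other way. It measured 12.1, 13.0 and 10.3 FPKM across knockout libraries 1 to 3, against 16.1, 14.7 and 13.9 FPKM across control libraries 1 to 3, and the log2 difference was -0.31 (95% confidence interval -0.63 to 0.004, adjusted p = 0.185 from limma). After rescaling by the median of ratios it was -0.17 (adjusted p = 0.542 from limma), so the small difference in *Jun* became smaller with the scaling.

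**Figure D2:**
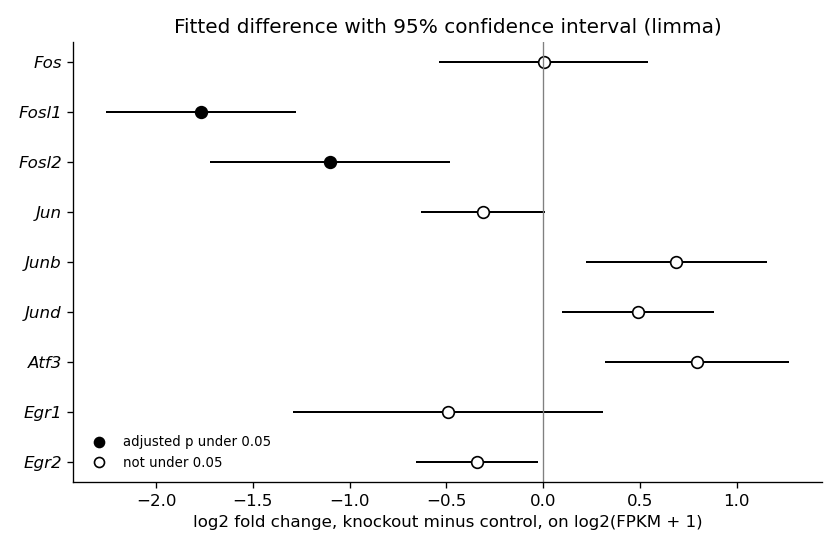
Log2 fold change of knockout minus control on the log2(FPKM + 1) scale for the 9 tested genes, with points for the fitted value and lines for the 95% confidence interval from limma. Filled points passed an adjusted p of 0.05, which were *Fosl1* at -1.77 and *Fosl2* at -1.10, and the intervals of *Junb*, *Jund* and *Atf3* lie above 0 without a call.

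Because FPKM is scaled by length, the subunits can be summed within each library. The summed FOS level was 22.2, 17.1 and 16.5 FPKM in the knockout libraries and 51.3, 41.0 and 36.7 FPKM in the controls. The summed JUN level was 297, 337 and 264 FPKM against 238.5, 186 and 168 FPKM. Thus the FOS sum was lower and the JUN sum higher in each knockout library than in any control library. The JUN level was 4.65, 4.54 and 4.57 times the FOS level in control libraries 1 to 3, a spread of 0.056 (SD, n = 3), and 13.4, 19.7 and 16.0 times in knockout libraries 1 to 3. This ratio does not depend on how the libraries are scaled. Its mean was 3.57 times as high in the knockout libraries (two-sided exact permutation p = 0.1), and between 3.21 and 3.89 times with any 1 library left out. It is a ratio of RNA levels, and protein was not measured.

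Within the FOS sum, *Fosl2* made up 75.8%, 60.1% and 58.5% in the knockout libraries and 65.9%, 68.8% and 53.9% in the controls, which overlapped. The share of *Fosl1* was 11.9%, 13.5% and 22.3% against 25.3%, 22.4% and 39.7%, with knockout library 3 and control library 2 almost touching. The share of *Fos* was 12.3%, 26.3% and 19.1% against 8.83%, 8.70% and 6.35%, higher in each knockout library, although the levels of *Fos* overlapped. Within the JUN sum, *Junb* held 82.2% to 86.0% in the knockout libraries and 74.8% to 83.3% in the controls. *Jun* held 4.08%, 3.85% and 3.92% against 6.73%, 7.90% and 8.25%, and *Jund* between 9.87% and 13.9% against up to 16.9%. The shares of *Junb* and *Jund* overlapped and that of *Jun* did not (two-sided exact permutation p = 0.1 for *Jun*, 0.2 for *Junb* and 0.6 for *Jund*).

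**Figure D3:**
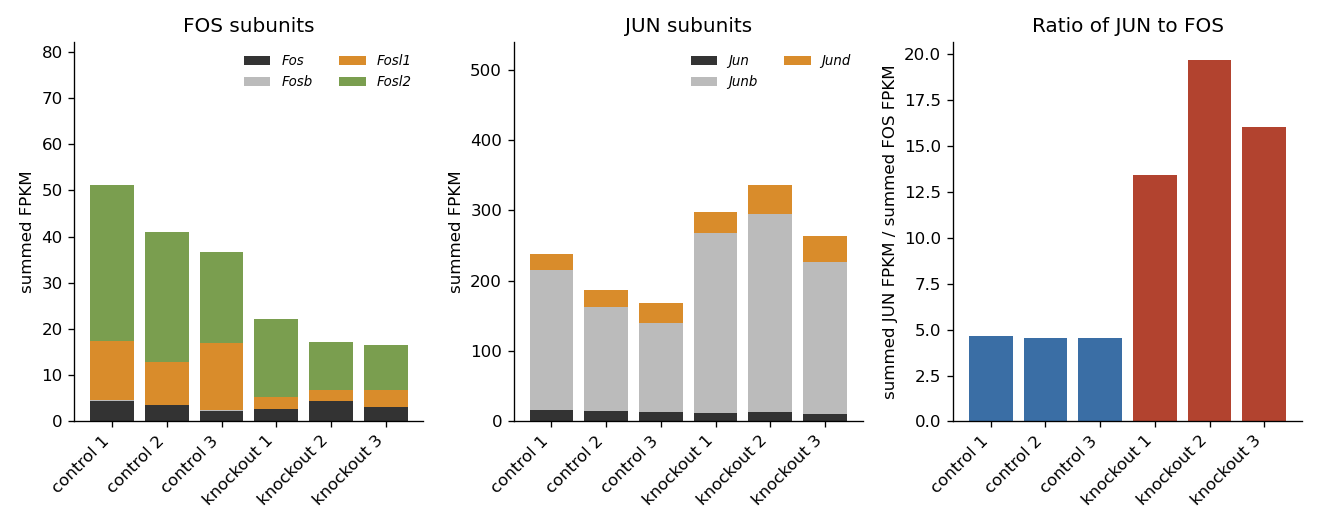
Stacked bars of FPKM for the FOS subunits and the JUN subunits in each of the 6 libraries, and bars of the summed JUN over the summed FOS level, with controls in blue and knockout libraries in red. The FOS bars are lower and the JUN bars higher in the knockout libraries, and the ratio stands near 4.6 in all 3 controls and at 13.4 to 19.7 in the knockout libraries.

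*Atf3* (Entrez 11910) measured 287, 250.3 and 239.6 FPKM across knockout libraries 1 to 3, against 115, 147 and 193 FPKM across control libraries 1 to 3. All 3 knockout libraries lay above the controls, and control library 3 was the nearest. The knockout mean was 1.71 times the control mean, for a fitted log2 difference of 0.79 (standard error 0.20, 95% confidence interval 0.32 to 1.27, adjusted p = 0.0571 from limma), just short of the threshold. It passed after rescaling by the median of ratios (log2 fold change 0.94, adjusted p = 0.0333), with voom on the recovered reads (0.95, adjusted p = 0.0357) and without control library 3 (0.98, adjusted p = 0.0109).

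The EGR genes encode zinc finger factors that respond to growth and differentiation signals, including those of macrophage colony-stimulating factor. *Egr1* (Entrez 13653) measured 2.24, 3.31 and 1.05 FPKM across knockout libraries 1 to 3, against 4.91, 3.64 and 1.91 FPKM across control libraries 1 to 3. The groups overlapped, and the log2 fold change of -0.49 had a 95% confidence interval as wide as -1.29 to 0.30 (adjusted p = 0.378 from limma). With 1 library left out it ran from -0.20 (without knockout library 3) to -0.78 (without control library 3). In the fit blocked by replicate number the interval was -0.93 to -0.060, and the adjusted p of 0.130 from limma did not pass either. *Egr2* (Entrez 13654) was at 1.18, 0.871 and 0.737 FPKM against 1.56, 1.35 and 1.41 FPKM. Its groups did not overlap, but it reached the filter on low values through its control mean alone, at 1.44 against 0.930 FPKM. The log2 fold change was -0.34 (95% confidence interval -0.65 to -0.033, adjusted p = 0.149 from limma) and -0.60 with a pseudocount of 0.1 (adjusted p = 0.156). *Egr3*, listed with the other immediate early genes, stayed below the filter, at 0.109, 0.0458 and 0.0295 FPKM against 1.26, 1.07 and 0.475 FPKM. Fitted without the filter, it had a log2 fold change of -0.84 and did not pass (adjusted p = 0.0507 from limma). It is named here after its values were seen.

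**Figure D4:**
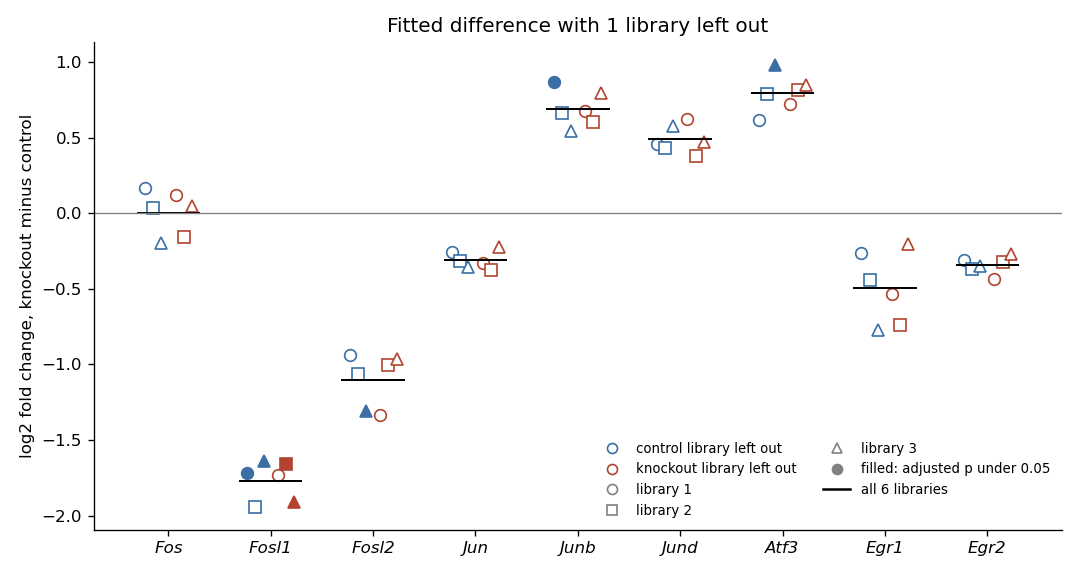
Log2 fold change of knockout minus control for the 9 tested genes with 1 library left out, in blue for a control and in red for a knockout library, with a marker shape for the library number, filled where the adjusted p was under 0.05, and a black line for all 6 libraries. *Fosl1* stays between -1.64 and -1.95, *Fos* lies on both sides of 0, and the other 7 genes keep their direction.

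Other basic leucine zipper factors, many of which pair with AP-1 subunits, were compared as a list. Of 32 genes, 29 were tested, and 4 rose and 1 fell (5 of 29, beside 7.31% of all genes), with a median log2 fold change of -0.05 (0.084 after rescaling). *Batf*, whose protein pairs with JUN proteins and has no activation domain of its own, measured 88.8, 87.2 and 70.8 FPKM across knockout libraries 1 to 3, against 32.8, 33.3 and 44.2 FPKM across control libraries 1 to 3. The groups were far apart, and the fitted log2 difference was 1.15 (standard error 0.17, adjusted p = 0.0146 from limma). *Mafk*, a small MAF protein that partners NRF2 and BACH1, rose from 5.71 ± 0.171 to 14.3 ± 2.39 FPKM (log2 fold change 1.17, adjusted p = 0.0113). *Creb5*, of the CREB and ATF family, rose from 1.40 ± 0.411 to 3.28 ± 0.0618 FPKM (0.85, adjusted p = 0.0262), and *Cebpd*, an inflammation-induced C/EBP factor, from 11.7 ± 1.79 to 21.3 ± 1.75 FPKM (0.82, adjusted p = 0.0254). *Cebpa*, a myeloid lineage factor, fell from 25.4 ± 13.1 to 5.89 ± 3.51 FPKM (-1.93, adjusted p = 0.0497 from limma), at the edge of the threshold. Its call was lost with no filter (adjusted p = 0.0877), with at least 10 reads in every library (0.0541) and with voom (0.0509), and that of *Creb5* with no filter (0.0551). Without knockout library 1, knockout library 2 or control library 2, none of these 5 passed, with adjusted p between 0.0573 and 0.184. *Creb5* and *Cebpd* were also lost without knockout library 3 (0.0593 and 0.0577), and *Cebpa* without control library 3 (0.0524).

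Of 34 other immediate early genes, 29 were tested, and 2 rose and 6 fell (8 of 29, beside 2.57% higher and 4.74% lower of all genes), with a median log2 fold change of -0.02. After rescaling 3 were higher and 5 lower, with a median of 0.12, and of all genes called 343 were higher and 326 lower. Of the 8 called without rescaling, the 6 with the largest differences were *Phlda1*, *Gadd45b*, *Zfp36l1*, *Nr4a1*, *Myc* and *Trib1*. *Phlda1*, a pleckstrin homology-like protein induced by growth factors, fell from 154 ± 23.7 to 26.7 ± 16.1 FPKM (log2 fold change -2.63, adjusted p = 0.0147). *Myc*, a growth-promoting transcription factor, fell from 12.7 ± 2.79 to 5.26 ± 0.824 FPKM (-1.12, adjusted p = 0.0196). *Nr4a1*, an orphan nuclear receptor, fell from 2.98 ± 1.25 to 0.618 ± 0.223 FPKM (-1.26, adjusted p = 0.0292). Its knockout mean was under 1 FPKM, so it passed the filter through the controls alone, and the call was lost with no filter (adjusted p = 0.0598) and with voom (0.0530). *Zfp36l1*, a factor of mRNA decay, and *Trib1*, a pseudokinase that promotes the breakdown of C/EBPα, fell by 1.30 and 1.01 on the log2 scale (adjusted p = 0.0297 and 0.0120). The call of *Zfp36l1* was lost after rescaling (-1.18, adjusted p = 0.0588), with voom (0.0679), with no filter (0.0605) and without knockout library 3 (0.0685). *Gadd45b*, a stress sensor, rose from 55.6 ± 12.1 to 140 ± 35.2 FPKM (1.31, adjusted p = 0.0267 from limma, and 0.0520 with no filter). Without control library 2 none of the 6 passed (adjusted p from 0.0824 to 0.134 from limma), nor without knockout library 1 (0.0603 to 0.115), and without knockout library 2 *Phlda1* alone did (0.0463).

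Of 27 genes of the MAP kinase cascade and of SRF with its cofactors, which lie upstream of immediate early genes, 25 were tested, and 1 rose and 3 fell (4 of 25, beside 7.31% of all genes), with a median log2 fold change of -0.32 beside -0.11 over all genes (-0.18 beside 0.01 after rescaling). *Map3k8*, the kinase TPL2 that links TLR4 to ERK, rose from 16.5 ± 1.42 to 31.6 ± 5.88 FPKM (0.88, adjusted p = 0.0284 from limma). *Rps6ka1*, the kinase RSK1 downstream of ERK, fell from 9.32 ± 1.31 to 3.98 ± 1.08 FPKM (-1.06, adjusted p = 0.0220). *Mapk14*, the gene of p38α, fell from 33.1 ± 1.11 to 21.0 ± 3.15 FPKM (-0.64, adjusted p = 0.0419), and this call was lost in the blocked fit by replicate number (adjusted p = 0.0530), after rescaling (-0.50, adjusted p = 0.0692), with voom (0.0735), with no filter (0.0566) and without control library 1 (0.0640). *Map3k1*, a kinase that can activate the JNK pathway, had a log2 fold change of -0.58 (limma adjusted p = 0.0379, 0.0726 with no filter and 0.0865 without knockout library 3). Without knockout library 1, knockout library 2 or control library 2, none of these 4 passed (adjusted p from 0.102 to 0.175 from limma). Among 16 MAP kinase phosphatases, Sprouty proteins and EGR corepressors, 12 were tested and 1 fell, which is near the 7.31% of all genes. It was *Dusp5*, a nuclear phosphatase of ERK, which fell from 7.64 ± 0.800 to 3.41 ± 0.695 FPKM (-0.98, adjusted p = 0.0185 from limma, and from 0.0569 to 0.0996 without any 1 of those 3 libraries). *Dusp1* and *Dusp2* are in this list and in that of the immediate early genes.

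Of 14 genes often cited as AP-1 targets, 12 were tested and 1 fell, which is near the 7.31% of all genes. *Hmox1*, the heme-degrading enzyme, fell from 1663 ± 351 to 479 ± 209 FPKM (-1.86, adjusted p = 0.0196 from limma), and the median log2 fold change of the list was -0.17 (-0.027 after rescaling). Heat shock genes, which respond to stress and handling of cells as immediate early genes do, had a log2 fold change below 0 in 11 of 11 tested, or 10 of 11 after rescaling, and 2 of the 11 fell (median -0.42, or -0.31 after rescaling). Of all genes, 5733 of 9030 were below 0 and 7.31% were called. *Hspa1a*, of the inducible HSP70 family, fell from 1.43 ± 0.204 to 0.525 ± 0.0922 FPKM (-0.67, adjusted p = 0.0263). Its knockout mean was under 1 FPKM, so it passed the filter through the controls alone, and its near-identical copy *Hspa1b* could share its reads. *Hsp90aa1*, an inducible chaperone, fell from 160 ± 15.3 to 111 ± 3.18 FPKM (-0.52, adjusted p = 0.0499), a call that was lost in the blocked fit by replicate number (adjusted p = 0.0649 from limma), after rescaling (-0.38, adjusted p = 0.110), with voom (0.121) and with no filter (0.0591). None of *Hmox1*, *Hspa1a* and *Hsp90aa1* passed without knockout library 1, knockout library 2 or control library 2 (adjusted p from 0.0774 to 0.198 from limma), and neither *Hspa1a* nor *Hsp90aa1* passed without knockout library 3 (0.0593 and 0.0968). The part of handling in the differences of the 10 factors was not tested.

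**Figure D5:**
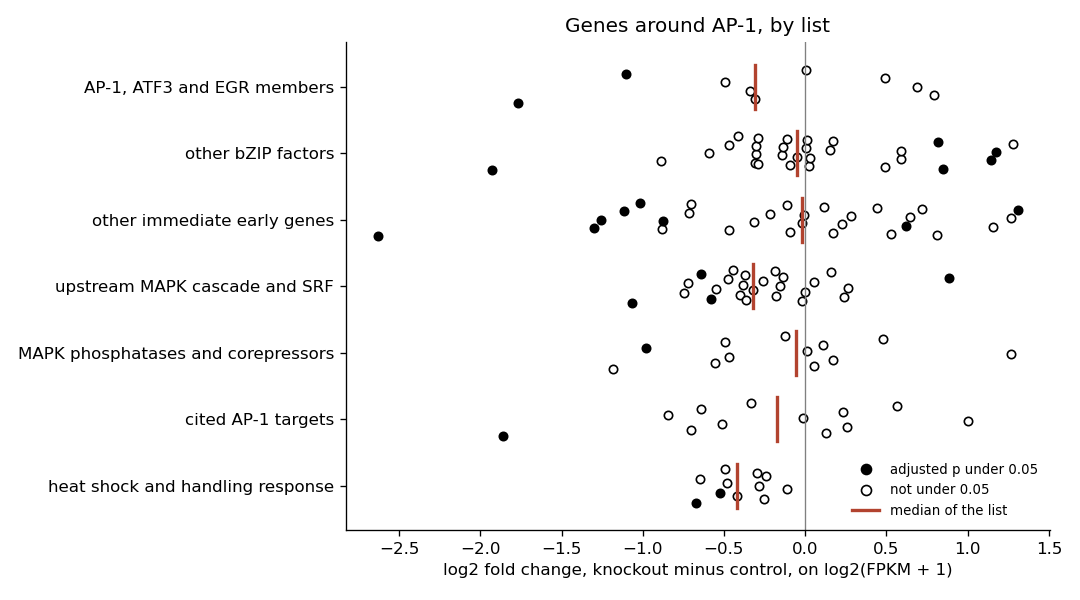
Log2 fold change of knockout minus control for every tested gene of the 10 factors and of 6 gene lists around AP-1, each point 1 gene, filled where the adjusted p was under 0.05, with the median of each list in red. The immediate early genes spread from -2.63 to 1.31, while the 11 heat shock genes lie below 0, or 10 of 11 after rescaling.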

How the data were processed

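Peritoneal macrophages were profiled by RNA sequencing in 6 libraries, which were grouped by their titles. The authors deposited FPKM per gene and library. The signal columns the authors deposited are group means of read counts divided by DESeq2 size factors. Columns of the authors' own comparison, also deposited (fold change as a ratio, log2 fold change, p-value, q-value), were left out. The submitters' processing notes name the build mm9, and the aligner, counter and annotation are not given in the sources used here. The FPKM steps, set against those means, gave back read numbers, and 100% of them lay within 0.05 of a whole number.

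As the table holds FPKM, limma 3.58.1 in R 4.3.3 was run on log2(FPKM + 1), using lmFit and a trended eBayes, for the 9030 genes with a mean of at least 1 FPKM in one group. Alternatives were no filter, at least 10 reads in every library, a pseudocount of 0.1, the replicate number as a block, each library left out, voom on the read numbers, and libraries rescaled with median-of-ratios factors. Same-numbered libraries deviated together (correlations of 0.11, 0.11 and 0.30), each over 0.1, which was the criterion for a pairing. Differently numbered libraries ranged from -0.33 to 0.29, the highest being knockout library 2 with control library 1, so the pairing is weak and rests on this check alone. On reads simulated for 9030 genes, 200 of 200 genes changed 4-fold were recovered and 10 unchanged genes were called. The simulation gave every gene the same dispersion and no library that stood apart. It therefore does not show how well smaller differences are found in these libraries. The members and lists were chosen with earlier results of these data known. From each list the genes past the threshold are named, at most 6, or the 2 most abundant. *Cyr61*, *Mkl1* and *Mkl2* were matched by gene identifier. Sequences come from RefSeq.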

Additional observations from a re-analysis of the deposited data

How the results depend on the processing

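The number of genes past the threshold was 660 (232 higher and 428 lower, 35.2% higher), and 669 after rescaling by the median of ratios, of which 51.3% were higher. With each library left out it ran from 8 (without control library 2) to 1278 (without control library 3), and it was 30 and 63 without knockout libraries 1 and 2. With the replicate number as a block it was 855. Of the 10 factors, 2 passed, and this became 1 without a filter on low values and 1 with at least 10 reads in every library, while it ran from 0 to 3 with each library left out, with 0 without knockout library 1 or control library 2. The block changed no call of the 10 factors. The log2 fold change of *Fos* ran from -0.20 (without control library 3) to 0.17 with 1 library left out, and was -0.16 without knockout library 2. *Lck*, the most abundant T cell marker (log2 fold change -0.084), turned to 0.013 with voom, 0.025 without knockout library 3 and 0.10 without control library 1, and ran down to -0.25 without control library 3. The cause was not tested. Among the 9 tested factors no other changed direction in any alternative run. Depth limits *Fosb*, with at most 7 reads in a library.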
